A study of Capra hircus with 9 samples.

Results

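The miR-34 family was followed in the mammary gland of Laoshan dairy goats through all rows of the deposited count table named chi-miR-34a, chi-miR-34b or chi-miR-34c. These were 5 of the 1359 listed miRNAs, namely chi-miR-34a, which is listed without an arm, and both arms of miR-34b and of miR-34c. Small RNA had been sequenced from LL (late lactation, 240 days postpartum), DP (the dry period, 300 days postpartum) and LG (late gestation, 140 days after mating). Each stage had 3 goats and 1 library per goat. All goats were healthy, untreated and of parity 3, with an average age of 4 years, so the stages differ in physiological state and in the animals sampled. The tissue is a whole piece of gland with many cell types, and in such tissue fewer cells of a type and less RNA per cell cannot be told apart.

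The miR-34 miRNAs are known as direct transcriptional targets of the tumour suppressor p53. Together with p53 the family restrains cell cycle entry and favours apoptosis, by repressing cyclins, cyclin-dependent kinases and anti-apoptotic proteins. This describes the family and not each arm, and the targets of single arms, such as chi-miR-34b-3p, were not analysed here. In mammals the miR-34 miRNAs come from separate genes. miR-34a has its own transcript and is found in most tissues, whereas miR-34b and miR-34c share a primary transcript that is most abundant in multiciliated epithelium, testis and lung. The involuting mammary gland, which sheds epithelium by apoptosis after milking stops, is a tissue where p53 is known to act.

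In the goat genome (ARS1.2), the gene of chi-miR-34a spans bases 42803786 to 42803892 of chromosome 16 and overlaps no other annotated gene. The nearest annotated genes are the long non-coding RNA gene LOC108637776, 20711 bases before it, and the protein-coding gene GPR157, 24483 bases after it. The genes of chi-miR-34c (chromosome 15 from 60561625 to 60561726) and chi-miR-34b (chromosome 15 from 60562341 to 60562446) lie 614 bases apart. Both lie within the bounds of the protein-coding gene C15H11orf88, and the next gene is BTG4, a member of the BTG/TOB family of anti-proliferative proteins. Whether they are exonic or intronic in C15H11orf88 was not analysed here.

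The libraries held 13672653 to 34378995 counts, and DP replicate 1 was the shallowest. The same library stood far above the others for several members, and the calls that rest on it are given with and without it. A count of 0 allows a level of at most 0.0873 to 0.219 CPM by library size only, without TMM scaling, depending on the library. CPM relates counts to the library's total, and this floor of 3 counts covers counting error only. Levels below are CPM after TMM scaling, as the mean ± SD of the 3 goats of a stage. A read spans a mature miRNA from end to end, so levels of different miRNAs are compared without a length correction. Of the 5 members, 4 passed the filter of at least 0.5 CPM in at least 3 libraries and were tested among 696 miRNAs. chi-miR-34c-3p did not pass. No member had counts equal to those of another listed miRNA in every library. The 5p arms of miR-34b and miR-34c are close in sequence in mammals, and how the authors' counting divides reads between such copies is not known, so the values of these arms are uncertain as those of separate miRNAs.

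chi-miR-34a was by far the most abundant member and ranked 137th of 1359 by mean level. It was followed by chi-miR-34c-5p (262nd), chi-miR-34b-3p (364th), chi-miR-34b-5p (447th) and chi-miR-34c-3p (712th). In every library chi-miR-34a had more counts than the 4 miRNAs of the miR-34b/34c locus together.

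chi-miR-34a, the member with its own gene, had 56.2, 48.1 and 51.7 CPM in LL replicates 1 to 3. In DP it had 252, 80.9 and 89.2 CPM, and in LG 131, 140.4 and 115 CPM. The 3 LL libraries were lower than each of the other 6, and the DP libraries lay on both sides of those of LG. The stage means were 52.0 ± 4.05 CPM in LL (SD, n = 3), 141 ± 96.6 CPM in DP and 129 ± 12.8 CPM in LG, and the DP mean without replicate 1 was 85.0 CPM. The level differed by 1.44 on the log2 scale in DP vs. LL (SE 0.40, edgeR adjusted p = 0.0216), so chi-miR-34a was upregulated in DP, as were 15.1% of all tested miRNAs. Its DP libraries were all above those of LL, as for 21.0% of the tested miRNAs. The call was lost when LL replicate 2 (adjusted p = 0.0752 from edgeR) or LL replicate 3 (adjusted p = 0.0581) was omitted, and in a fit of both stages alone (adjusted p = 0.0607). Omitting DP replicate 1 left a difference of 0.59 on the log2 scale (adjusted p = 0.056 from edgeR).

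In LL vs. LG, chi-miR-34a had a log2 fold change of −1.31 (SE 0.40, edgeR adjusted p = 0.0503), which narrowly missed the threshold. The libraries did not overlap, which held for 17.4% of the tested miRNAs in this direction. All 9 alternative tests, scalings, filters and models that kept every library of both stages called it, with log2 fold changes of −1.90 to −1.30 and adjusted p-values of 0.00146 to 0.0484. With 1 library left out the log2 fold change was −1.60 to −1.38, and 3 of 9 fits called it, those without a DP library. The scaling matters here, because the median log2 fold change of all tested miRNAs was 0.17 in this comparison with TMM and −0.42 by library size only. Relative to the median with TMM, chi-miR-34a stood at −1.48. The difference in DP vs. LG, 0.13 on the log2 scale (SE 0.39, adjusted p = 0.832 from edgeR), was within the spread and changed sign with the scaling. Omitting DP replicate 1 gave −0.79 (adjusted p = 0.016 from edgeR), a change smaller than the call asks for.

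chi-miR-34c-5p, the abundant arm of miR-34c, had 10.04, 12.5 and 17.9 CPM in LL. In DP it had 88.6, 11.3 and 7.63 CPM, and in LG 4.32, 4.86 and 5.26 CPM. The counts behind these levels were 128 to 331 in LL, 175 to 1412 in DP and 123 to 232 in LG. Every LL and DP library was above every LG library, and DP replicate 1 was far above all others. The stage means were 13.5 ± 4.002 CPM in LL (SD, n = 3), 35.8 ± 45.8 CPM in DP and 4.81 ± 0.469 CPM in LG, and the DP mean without replicate 1 was 9.44 CPM.

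In DP vs. LG, chi-miR-34c-5p was upregulated by 2.89 on the log2 scale (SE 0.79, adjusted p = 0.0161 from edgeR). This size rests on DP replicate 1, without which it was 0.79 (adjusted p = 0.0713 from edgeR). The call was also lost, at 2.55 to 2.69, without any 1 of the LG libraries (adjusted p = 0.0581 to 0.0623), with limma-voom (2.00, adjusted p = 0.061) and with the replicate number as a block (2.34, adjusted p = 0.0519). In LL vs. LG it differed by 1.48 on the log2 scale (SE 0.76, adjusted p = 0.204 from edgeR). Without DP replicate 1 the fit called it, at 1.41 (adjusted p = 0.00842 from edgeR), although that library belongs to neither stage compared. A fit of the LL and LG libraries alone gave 1.24 (adjusted p = 0.00736 from edgeR). In DP vs. LL it was 1.41 (SE 0.75, adjusted p = 0.177 from edgeR) with all libraries and −0.62 (adjusted p = 0.165) without DP replicate 1.

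chi-miR-34b-5p, from the neighbouring hairpin, was less abundant. It had 1.88, 2.05 and 2.86 CPM in LL, 10.8, 0.965 and 1.09 CPM in DP, and 0.755, 0.987 and 0.589 CPM in LG. These levels stand on 21 to 53 counts per library outside DP replicate 1, which had 172. The LL libraries were all above those of LG, DP replicates 2 and 3 lay below those of LL, and the libraries of DP and LG overlapped. In DP vs. LG it was upregulated by 2.45 on the log2 scale (SE 0.83, adjusted p = 0.0409 from edgeR), and without DP replicate 1 it was 0.23 (adjusted p = 0.674). The call held in 2 of the 9 fits with 1 library left out, those without DP replicate 2 or 3, and in 1 of 8 other alternatives that gave a p. In LL vs. LG it was 1.55 (SE 0.82, adjusted p = 0.217 from edgeR), which became 1.48 (adjusted p = 0.0144) without DP replicate 1. In DP vs. LL it was 0.90 (SE 0.79, adjusted p = 0.422 from edgeR). Without DP replicate 1 the direction turned and chi-miR-34b-5p was called lower in DP, at −1.25 (adjusted p = 0.0342 from edgeR).

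In DP replicate 2, chi-miR-34b-3p departed from both 5p arms. It had 0.863, 1.78 and 3.29 CPM in LL, 21.3, 12.2 and 2.22 CPM in DP, and 0.652, 0.474 and 0.770 CPM in LG. It stood high in DP replicate 2 as well as in DP replicate 1, with 266 and 339 counts, against 51 in DP replicate 3 and at most 61 in any other library. Every DP library was above every LG library, as for 27.7% of the tested miRNAs in this direction, while DP and LL overlapped. The stage means were 1.98 ± 1.23 CPM in LL (SD, n = 3), 11.9 ± 9.53 CPM in DP and 0.632 ± 0.149 CPM in LG, and the DP mean without replicate 1 was 7.22 CPM.

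In DP vs. LG, chi-miR-34b-3p was upregulated by 4.21 on the log2 scale (SE 0.78, adjusted p = 0.00205 from edgeR). It was the member whose call rested least on a single library. All 9 fits with 1 library left out called it, at 3.31 to 4.45, the lowest being that without DP replicate 1 (adjusted p = 0.00543 from edgeR). All 9 other alternatives called it too, at 3.66 to 4.16. It was also upregulated in DP vs. LL, by 2.57 on the log2 scale (SE 0.72, adjusted p = 0.0219 from edgeR). This call was lost when LL replicate 1 (adjusted p = 0.0644) or LL replicate 2 (adjusted p = 0.0649) was omitted, and with limma-voom (2.17, adjusted p = 0.0718). It was also lost with the replicate number as a block (2.47, adjusted p = 0.0563 from edgeR). Without DP replicate 1 the difference was 1.74 (adjusted p = 0.0801 from edgeR). In LL vs. LG it was 1.64 (SE 0.73, adjusted p = 0.147 from edgeR), and no alternative called it.

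chi-miR-34c-3p, the scarce arm of miR-34c, had 3 to 6 counts per library in LL, 6 to 18 in DP and 2 to 5 in LG. The levels were 0.321 ± 0.155 CPM in LL (SD, n = 3), 0.663 ± 0.438 CPM in DP and 0.1098 ± 0.0293 CPM in LG, close to the floor. After TMM scaling every LL and DP library was above every LG library, and DP and LL overlapped. By library size only, LL replicate 3 (0.122 CPM) lay below LG replicates 1 (0.157 CPM) and 3 (0.145 CPM). chi-miR-34c-3p was not among the tested miRNAs, and without a filter it was called in DP vs. LG, by 2.13 on the log2 scale (adjusted p = 0.0483 from edgeR).

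Of the 4 tested members, 3 were upregulated in DP vs. LG, where 31.5% of all 696 tested miRNAs were called and 21.6% were higher in DP. In DP vs. LL 2 of 4 were, where 26.7% of all were called and 15.1% were higher in DP. Without DP replicate 1 the numbers upregulated were 1 of 4 in DP vs. LG (chi-miR-34b-3p), against 19.5% of all in that fit, and 0 of 4 in DP vs. LL, against 12.2%. chi-miR-34b-5p was called lower in the latter, as 15.7% of all were. In LL vs. LG 0 of 4 were called by edgeR, and 12.8% of all were called, 8.91% higher and 3.88% lower in LL. At an unadjusted p under 0.05 edgeR gave 2 of 4 in LL vs. LG (chi-miR-34a and chi-miR-34b-3p), against 33.0% of all. limma-voom called 1 of 4, chi-miR-34a, against 14.4% of all. DESeq2 called the same miRNA, 1 of the 2 members for which it gave a p, against 17.9% of all with an adjusted p. After TMM scaling 4 of 4 had libraries that did not overlap, as 48.4% of all did. The 3 members of the miR-34b/34c locus were all higher in LL without overlap, as 31.0% of the tested miRNAs were. By library size only, chi-miR-34b-3p overlapped, with 0.643 CPM in LL replicate 1 against 0.747 CPM in LG replicate 1 and 0.989 CPM in LG replicate 3. The comparisons share libraries, so they are not independent. Members of the miR-34b/34c locus come from neighbouring hairpins and share goats and libraries, so they are not independent of each other.

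**Figure D1:**
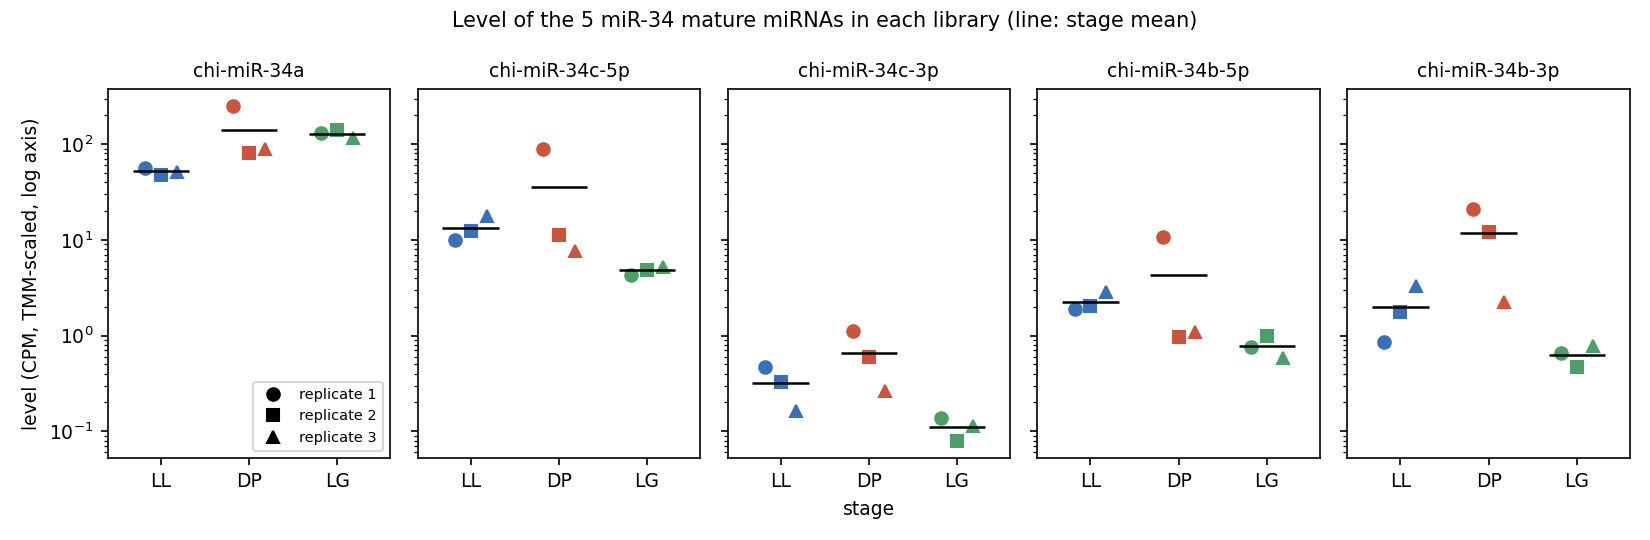
Level of each miR-34 miRNA in each library, in TMM-scaled CPM on a log axis, by stage (LL, DP, LG). Markers give the replicate and lines the stage mean of 3 goats. chi-miR-34a is lowest in LL, whereas the miR-34b and miR-34c arms have their lowest stage mean in LG, and DP replicate 1 is the highest library in every panel.

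**Figure D2:**
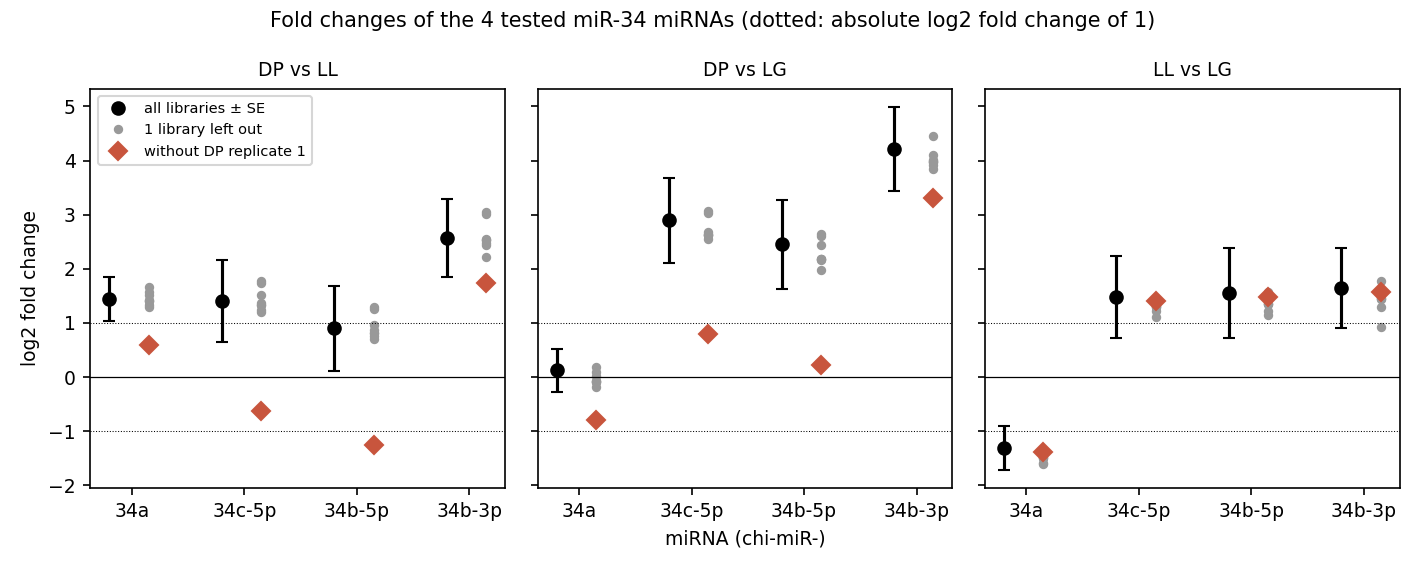
Log2 fold changes of the 4 tested members in the comparisons DP vs. LL, DP vs. LG and LL vs. LG. Black points are the fit of all 9 libraries with its SE, grey points are fits with 1 library left out, and diamonds are fits without DP replicate 1, which turn chi-miR-34c-5p and chi-miR-34b-5p negative in DP vs. LL and leave chi-miR-34b-3p at 3.31 in DP vs. LG.

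Because DP replicate 1 entered most of these comparisons, its distance from the other libraries was measured over all tested miRNAs. chi-miR-34c-5p was 7.87-fold higher there than in the higher of the other DP libraries, a distance that 3 of 696 tested miRNAs (0.431%), itself included, reached. For chi-miR-34b-5p the distance was 9.90-fold, which 2 of 696 reached. For chi-miR-34a it was 2.83-fold, which 44 reached, and for chi-miR-34b-3p 1.74-fold, which 103 reached. Against the highest of all 8 other libraries, chi-miR-34c-5p stood 4.96-fold higher in DP replicate 1, farther than any other tested miRNA. DP replicate 1 was the highest library for 138 of the 696 tested miRNAs (19.8%), against 21 to 114 for each other library.

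The study's stages can also be compared within each library, as the balance between the loci, which needs no scaling. The miR-34b/34c locus made up 19.1% of the miR-34 counts in LL replicate 1 (169 of 885 counts, exact 95% interval 16.6% to 21.8%), 25.7% in LL replicate 2 (23.0% to 28.6%) and 31.9% in LL replicate 3 (29.4% to 34.4%). In DP the shares were 32.6% (31.4% to 33.8%), 23.6% (21.9% to 25.4%) and 11.2% (9.91% to 12.5%). In LG they were 4.28% (3.67% to 4.96%), 4.36% (3.72% to 5.06%) and 5.52% (4.92% to 6.16%). The LG libraries were below all others, and the libraries of LL and of DP overlapped. By stage the share was 25.6% ± 6.39 in LL (SD, n = 3), 22.5% ± 10.8 in DP and 4.72% ± 0.694 in LG. The intervals cover counting error only.

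**Figure D3:**
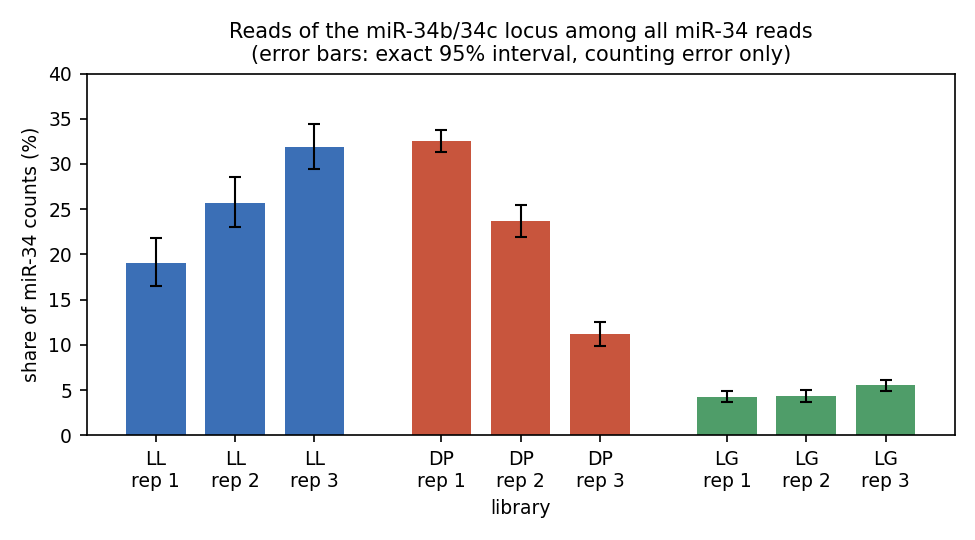
Share of the miR-34 counts of each library that fell on the miR-34b/34c locus, in percent, with exact 95% intervals. LG libraries sit at 4.28% to 5.52%, LL libraries at 19.1% to 31.9%, and DP libraries run from 11.2% to 32.6%.

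The same contrast was tested for each tested member of the miR-34b/34c locus as its ratio to chi-miR-34a. chi-miR-34a was 2.89 to 5.58 times as abundant as chi-miR-34c-5p in the LL libraries, 2.85 to 11.7 times in DP and 21.9 to 30.2 times in LG. The mean log2 ratio of chi-miR-34c-5p to chi-miR-34a was −1.98 ± 0.475 in LL (SD, n = 3), −2.63 ± 1.03 in DP and −4.74 ± 0.252 in LG, and it differed between the stages (exact permutation test over 9 libraries, p = 0.0179, adjusted over 3 ratios 0.0179). The ratio of chi-miR-34b-5p was −4.52 ± 0.354 in LL, −5.74 ± 1.04 in DP and −7.37 ± 0.232 in LG (exact permutation test, p = 0.00714, adjusted 0.0179). That of chi-miR-34b-3p was −4.88 ± 1.01 in LL, −3.87 ± 1.32 in DP and −7.66 ± 0.476 in LG (exact permutation test, p = 0.0143, adjusted 0.0179).

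The locus ratios thus differed by much the same amount between LL and LG, by 2.75, 2.85 and 2.77 on the log2 scale for chi-miR-34c-5p, chi-miR-34b-5p and chi-miR-34b-3p, with chi-miR-34a as the shared denominator. Between DP and LG they differed by 2.11, 1.63 and 3.79, and without DP replicate 1 by 1.55, 1.03 and 3.64. In every library of LL and DP each ratio was above that of every LG library. Between LL and DP the libraries overlapped for all 3 ratios. Single pairs of stages were not tested, because 3 against 3 libraries cannot give an exact p below 0.10. Without DP replicate 1 the exact permutation p-values were 0.00714, 0.00357 and 0.025 in the same order, so the difference between loci did not need that library. For chi-miR-34c-5p the exact p was 0.0536 without any 1 of the LG libraries and 0.05 on ranks, and for chi-miR-34b-3p it was 0.0607 without LG replicate 2.

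**Figure D4:**
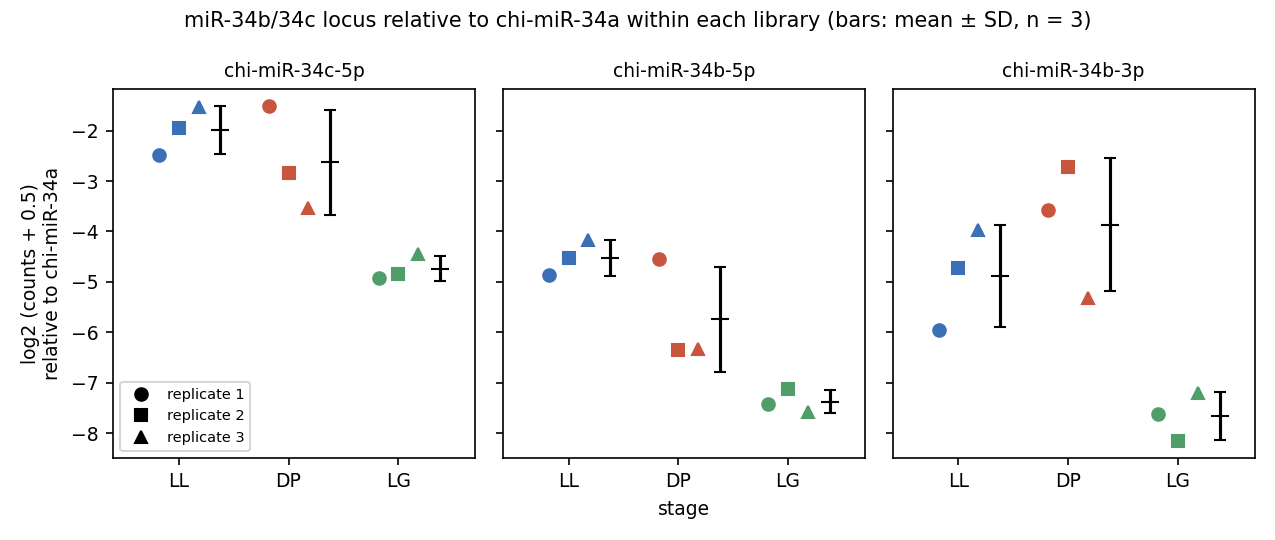
Log2 ratio of counts (0.5 added) of chi-miR-34c-5p, chi-miR-34b-5p and chi-miR-34b-3p to chi-miR-34a within each library, by stage, with mean ± SD of 3 goats at the right of each stage. All LG libraries lie below all LL and DP libraries in each panel, and LL and DP overlap.

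The balance of the arms of miR-34b is given as a description, with no test. The 3p arm held 31.4%, 46.6% and 53.5% of the miR-34b counts in LL replicates 1 to 3. In LG it held 46.3%, 32.4% and 56.7%, on 37 to 60 counts per library. In DP it held 66.3% (exact 95% interval 62.1% to 70.4%), 92.7% (89.0% to 95.4%) and 67.1% (55.4% to 77.5%). All DP libraries were above all LL and LG libraries, and the interval of DP replicate 2 did not reach those of the others. The intervals of DP replicates 1 and 3 did overlap some of the other stages, such as LL replicate 3 (43.9% to 62.9%) and LG replicate 3 (43.2% to 69.4%). In DP replicate 2, chi-miR-34b-3p had 266 counts, while chi-miR-34b-5p had 21 counts, as few as in any library. By stage the 3p share was 43.8% ± 11.3 in LL (SD, n = 3), 75.4% ± 14.99 in DP and 45.1% ± 12.2 in LG. For miR-34c the 3p arm held 0.898% to 5.04% of the counts in the 9 libraries, and the stages overlapped.

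**Figure D5:**
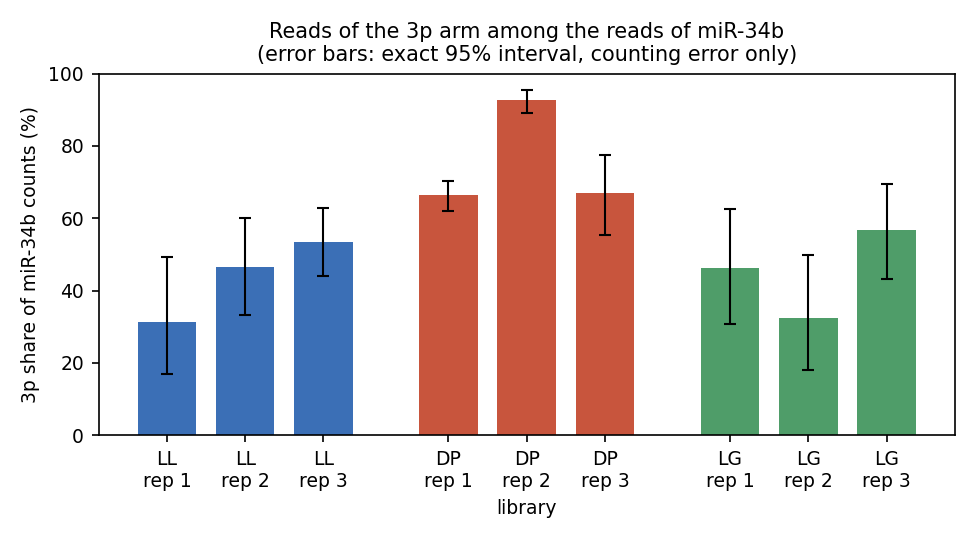
Share of the miR-34b counts on the 3p arm in each library, in percent, with exact 95% intervals for counting error. The DP libraries are at 66.3% to 92.7%, the LL libraries at 31.4% to 53.5% and the LG libraries at 32.4% to 56.7%.

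The relatives of the family, miR-449a, miR-449b and miR-449c, are known as related to it by seed in mammals and mark multiciliated cells. They were taken by name, with all listed arms, and their sequences were not compared here. The miR-449 genes lie on chromosome 20 within the bounds of CDC20B, with MIR449A from 23985418 to 23985505 (ARS1.2). The 5 listed arms summed to 0.314 to 0.462 CPM in LL, 0.597 to 1.57 CPM in DP and 0.240 to 0.430 CPM in LG, and none passed the filter. chi-miR-449a-5p accounted for most of this, with 4 to 6 counts in LL, 22, 10 and 13 in DP and 6 to 17 in LG. The markers of ciliated epithelium were thus near 0 in every library, and DP replicate 1 was the highest library here too.

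Other cell types were followed with lists of marker miRNAs, given as summed CPM. No listed marker was at 0 in all libraries. The 5 listed epithelial miRNAs, among them the miR-200 family, summed to 34893 to 42110 CPM in LL, 34218 to 37558 CPM in LG and 13064 to 20811 CPM in DP. Every DP library was thus below every LL and LG library. The 6 immune cell miRNAs summed to 921 to 1339 CPM in LL, 1255 to 2431 CPM in DP and 410 to 640 CPM in LG. The 4 blood miRNAs summed to 364 to 551 CPM in LL, 122 to 1284 CPM in DP and 87.1 to 168 CPM in LG, and the 7 muscle miRNAs to 722 to 933, 971 to 3448 and 420 to 531 CPM in the same order. The LG libraries were below all LL and DP libraries for the immune and the muscle lists, as for the miR-34b/34c share. The 10 stromal and myoepithelial miRNAs summed to 85570 to 136405, 67309 to 183754 and 63044 to 70938 CPM, and both endothelial arms to 15852 to 22980, 19028 to 31975 and 14716 to 16363 CPM. DP replicate 1 held the lowest blood, muscle, stromal and endothelial sums of DP and was the highest DP library for epithelium. The part of cell composition in the differences of the miR-34 miRNAs was not tested.

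The other p53-linked miRNAs, whose transcription or processing is known to rise with p53, were described by the same fit. Of 18 listed, 16 were tested. In DP vs. LG, 3 of 16 were higher in DP and 0 lower, against 21.6% and 9.91% of all tested miRNAs, and the median log2 fold change was 0.88 against 0.18 for all. They were chi-miR-16a-5p, which represses cyclins and BCL2 (1616 ± 240 CPM in LG, 4536 ± 1465 CPM in DP, log2 fold change 1.49, SE 0.25), chi-miR-145-3p, known from smooth muscle and myoepithelium (1.62, SE 0.29), and chi-miR-22-5p (1.38, SE 0.34). Without DP replicate 1 the numbers were 5 higher and 1 lower, against 19.5% and 16.6% of all in that fit, and the median was 0.61 against −0.099. The median was 0.44 against 0.0051 without DP replicate 2 and 0.24 against −0.071 without DP replicate 3.

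In DP vs. LL, 3 of the 16 were higher in DP and 2 lower, against 15.1% and 11.6% of all, with a median log2 fold change of 0.38 against 0.12. The median was 0.37 against −0.092 without DP replicate 1 and 0.18 against 0.15 without DP replicate 2. Without DP replicate 3 it was −0.041 against 0.0073, with 3 higher and 4 lower, against 13.9% and 13.0% of all in that fit. Higher were chi-miR-16a-5p (1.28, SE 0.25), chi-miR-16b-5p (1.51, SE 0.28) and chi-miR-15a-5p (1.103, SE 0.27), which share a seed and cell cycle targets. Lower were chi-miR-107-3p (505 ± 51.9 CPM in LL, log2 fold change −1.75, SE 0.21) and chi-miR-200c (−1.23, SE 0.24), both without overlap of the libraries, as for 20.3% of all in this direction. chi-miR-200c is also on the epithelial list, and miR-143 and miR-145 are also on the stromal list. In LL vs. LG, chi-miR-107-3p (1.67, SE 0.21) and chi-miR-145-3p (1.22, SE 0.29) were higher in LL and none was lower, against 8.91% and 3.88% of all, with a median of 0.56 against 0.17. By library size only, 1 was higher and 1 lower, against 4.31% and 12.9% of all, with a median of −0.03 against −0.42. The median was 0.37 against −0.027 without LL replicate 3 and 0.30 against −0.029 without LG replicate 2. chi-miR-192-5p, chi-miR-194 and chi-miR-215-5p, also known as direct p53 targets, were called in no comparison. In DP vs. LG their log2 fold changes were 0.58 (adjusted p = 0.0479 from edgeR), 0.91 (adjusted p = 0.0366) and 1.67 (adjusted p = 0.0618), so the first pair missed the limit on the fold change and the last that on p.

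The known miRNAs outside the family most like each member were sought by Pearson's r of log2 CPM over the 9 libraries, among the 228 known miRNAs whose mean level reached 10 CPM. These values describe a likeness over libraries that share stage, goat and scaling. For chi-miR-34a they were chi-miR-432-5p (0.95), chi-miR-382-3p (0.93) and chi-miR-379-5p (0.91), whose genes lie on chromosome 21 between 65053559 and 65217209, in the imprinted DLK1-DIO3 region, and without DP replicate 1 the values were 0.92, 0.86 and 0.82. For chi-miR-34b-3p they were chi-miR-10b-3p (0.95), chi-miR-196a (0.93), both of HOX gene clusters, and chi-let-7b-5p (0.93), at 0.92, 0.89 and 0.87 without DP replicate 1. For chi-miR-34c-5p they were chi-miR-374a-3p (0.90), chi-miR-361-3p (0.88) and chi-miR-99a-3p (0.86), which fell to 0.66, 0.67 and 0.44 without that library. For chi-miR-34b-5p they were chi-miR-374a-3p (0.94), chi-miR-655 (0.84) and chi-miR-362-5p (0.83), at 0.82, 0.47 and 0.71 without it. The gene of chi-miR-655 lies in the same stretch of chromosome 21 as those of the miRNAs most like chi-miR-34a. Outside the family, chi-miR-374a-3p was the nearest over the 9 libraries to both 5p arms of the miR-34b/34c locus. Without DP replicate 1 this order did not hold for chi-miR-34c-5p, where chi-miR-361-3p (0.666) was slightly above chi-miR-374a-3p (0.662). Both 5p arms were more like each other. The r between chi-miR-34b-5p and chi-miR-34c-5p was 0.96 over the 9 libraries and 0.85 without DP replicate 1. chi-miR-34b-3p correlated at 0.83 with chi-miR-34c-5p and 0.66 with chi-miR-34b-5p, and at 0.69 and 0.26 without DP replicate 1. The r of chi-miR-34a with each of these members was 0.21 to 0.24, and −0.92 to −0.45 without DP replicate 1.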

How the data were processed

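Small RNA libraries of mammary gland were analysed for late lactation (LL), the dry period (DP) and late gestation (LG), with 3 goats per stage. The deposited values were counts of reads per mature miRNA. Per the paper's methods, the authors trimmed reads with Trimmomatic, aligned them to ARS1.2 with miRDeep2 and counted them with its quantifier; the submitters' processing notes also list FastQC 0.11.9, cutadapt 4.2 and Bowtie 1.1.1. The deposited values of LL replicate 3 were treated like expected counts, because 2 miRNAs stood at 209.5, and rounded. Libraries held 13672653 to 34378995 counts. Libraries of the same stage were separate, with a chi-square per degree of freedom of at least 248.

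After TMM scaling, stages were compared by the quasi-likelihood test of edgeR 4.0.16 (R 4.3.3) in a model of all 9 libraries with a stage term alone. It covered the 696 miRNAs that reached 0.5 CPM in 3 or more libraries. The call was a Benjamini-Hochberg adjusted p under 0.05 with an absolute log2 fold change above 1. Standard errors (SE) were derived from the F statistic. Ratios to chi-miR-34a (0.5 added to each count) were tested with an exact permutation test over 1680 assignments of the libraries to stages. Shares carry exact 95% binomial intervals. The test was checked on simulated counts. Other settings tried were other scalings and filters, limma-voom (limma 3.58.1), DESeq2 1.42.0, fits of only the stages compared, blocking on the replicate number, and omission of single libraries.

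The family was taken by name, as were the seed relatives. The named miRNAs were the family, the miR-449 relatives, a list of p53-linked miRNAs and, per member, the 3 known miRNAs outside the family most alike over the libraries. These members and lists were chosen with earlier results of these data known. Nothing in the labels ties goats of different stages to each other or gives a batch. Early and peak lactation, and mRNA data, were not analysed here.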

Additional observations from a re-analysis of the deposited data

How the results depend on the processing

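With 3 goats per stage, single libraries decided most calls on the miR-34 family, as given with each miRNA above, and the number of counts limits chi-miR-34b-5p and chi-miR-34c-3p. The near-zero log2 fold change of chi-miR-34a in DP vs. LG turned to −0.10 with DESeq2, −0.091 with limma-voom, −0.087 with only the compared stages, −0.076 with the upper quartile, −0.015 by library size only, −0.19 when chi-miR-148a-3p was omitted, −0.25 without a filter, −0.28 with at least 10 counts in every library and −0.032 with the replicate block. With 1 library left out it ran from −0.79 to 0.18. In DP vs. LL, chi-miR-34b-5p was at −0.086 with limma-voom and between −1.25 and 1.29 with 1 library left out, and chi-miR-34c-5p between −0.62 and 1.78. DESeq2 gave no p-value for these 2 miRNAs. For chi-miR-34c-5p in DP vs. LG, limma-voom gave an adjusted p of 0.061. Without a filter, chi-miR-34c-3p was called in DP vs. LG at 2.13 (adjusted p = 0.0483 from edgeR). The cause of these changes was not tested.

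The miRNAs called in LL vs. LG numbered 89, 144 with only the compared stages, and 33 to 125 with 1 library left out. The numbers higher and lower were 150 and 69 in DP vs. LG, 105 and 81 in DP vs. LL and 62 and 27 in LL vs. LG. By library size only they were 116 and 85, 165 and 59, and 30 and 90. Omitting chi-miR-148a-3p gave 113 and 99, 81 and 94, and 48 and 43. With the upper quartile LL vs. LG had 51 and 40. The exact p of the ratio to chi-miR-34a was 0.05 on ranks for chi-miR-34c-5p. With 1 library left out it was 0.00714 to 0.0536 for chi-miR-34c-5p, 0.00357 to 0.0429 for chi-miR-34b-5p and 0.00714 to 0.0607 for chi-miR-34b-3p. Of the p53-linked list in LL vs. LG, 1 in place of 2 was called in 10 alternatives.

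The replicate numbers name different goats, and the deviations of libraries with the same number correlated at −0.10 to 0.21. In 6 of 9 libraries the best correlation was with the own number, although most libraries of the other stages carry another number. Whether the number marks anything shared was not tested. With the number as a replicate block, 222, 170 and 88 miRNAs were called in DP vs. LG, DP vs. LL and LL vs. LG, against 219, 186 and 89. The block put chi-miR-34c-5p (adjusted p = 0.0519 from edgeR) and chi-miR-34b-5p (adjusted p = 0.118) in DP vs. LG and chi-miR-34b-3p in DP vs. LL (adjusted p = 0.0563) beyond the threshold, and chi-miR-34a in LL vs. LG (adjusted p = 0.0399) within it.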
